A study of Mus musculus with 12 samples.

Results

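The Hox genes of clusters A to D encode homeodomain transcription factors, and all 39 of them were measured among the 19711 genes that the arrays named. Members were chosen by symbol alone, as every gene called Hoxa, Hoxb, Hoxc or Hoxd with a paralog number, which gave 11 genes of the Hoxa cluster on chromosome 6, 10 of Hoxb on chromosome 11, 9 of Hoxc on chromosome 15 and 9 of Hoxd on chromosome 2. Expression was measured on 12 one-colour whole-genome oligonucleotide arrays, with 3 biological replicates in each of 4 groups. Control mouse embryonic fibroblasts (MEFs) came from male embryos that carried the Vasa::RFP and Oct4ΔPE-GFP reporters, on a C57BL6/J background. The OS group were MEFs at day 4 after transfection with Oct4 and Sox2, the inhibitor mixture called chem (tranylcypromine against H3K4 demethylation, BIX-01294 against H3K9 methylation and DZNep against H3K27 methylation), VA5 (the histone deacetylase inhibitor VPA with the TGF-β receptor inhibitor ALK5i) and siRNA against Dnmt1, the maintenance DNA methyltransferase. The OCKS group received the same inhibitors and siRNA, also for 4 days, with a tandem vector that adds c-Myc and Klf4 to Oct4 and Sox2. The primordial germ cells (PGCs) were E15.5 female germ cells of the genital ridge with the Oct4 reporter, from a cross of MCH with C57BL6/J. The treatments were transfections of mixed cultures, so that each array averages cells that took up the vectors and cells that did not. The controls carried neither vectors, inhibitors nor siRNA, so that no single agent can be told apart from the others here.

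Hox genes give the cells of the embryo their position along the body axis. Within each cluster the genes lie in the order of their paralog numbers, the low numbers act in anterior parts such as the hindbrain and the high numbers in the lumbar and tail region, the distal limb and the genital tract. Their products bind DNA together with the cofactors Pbx and Meis. Retinoic acid and the Cdx factors switch the clusters on, and Polycomb complexes, which place H3K27 methylation, and Trithorax complexes, which place H3K4 methylation, keep their states off and on. Fibroblasts keep the Hox pattern of the body site they came from.

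A level is the log2 signal of a probe minus the 75th percentile of log2 signal on its array, so that 0 is the 75th percentile and each unit is a doubling. Levels are compared between groups for the same gene and never between genes, because probes differ in brightness. A difference was called where the moderated test of limma, fitted to all 4 groups and adjusted by Benjamini and Hochberg over all genes tested, gave an adjusted p under 0.001 and the change was at least 2-fold. A gene entered a comparison if either group had all 3 of its arrays well above background for it. In these bulk samples fewer expressing cells and less RNA per cell cannot be told apart.

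The arrays had 71.9 to 85.6% of spots well above background, 75th percentile signals of 1147.4 to 2924.8 and no saturated spot, and they lay on 6 slides, none of which held treated and control MEFs together. Slide and treatment therefore cannot be told apart in OS or OCKS against MEFs, while slide 2 joined MEFs with PGCs and slide 3 joined OS with OCKS. Dnmt1, the target of the siRNA, had levels of -1.20, -0.98 and -1.36 in MEFs, -3.0, -3.26 and -3.50 in OS and -3.84, -3.22 and -3.55 in OCKS, lower in both treatments (adjusted p = 4.75e-06 and 1.98e-06). Pou5f1, which encodes Oct4, was higher by 5.76 in OS (adjusted p = 1e-06), whereas in OCKS its difference of 0.82 was not called (adjusted p = 0.0842). Sox2 (0.21 and 1.28) and Klf4 (-0.05 and -0.23) were not called in OS or OCKS, and Myc rose by 1.55 in OS and 1.28 in OCKS (adjusted p = 0.000255 and 0.000838). Whether these probes lie in parts that the vectors carry is not given in the sources used here. All 10 fibroblast markers were well above background in MEFs, OS and OCKS, and 9 of 10 germ cell markers were higher in PGCs than in MEFs, with Dazl above background on no MEF array. In OS 6 of these markers were higher, among them Pou5f1 itself, and 1 lower, and in OCKS 5 were higher and 1 lower, the lower marker being Nanos3 in each (-1.38 and -1.31). Of the 9 tested, 2 in OS and 3 in OCKS were not called. Over all genes tested 10.4% were higher and 12.9% lower in OS, 10.9% and 14.2% in OCKS and 31.7% and 25.1% in PGCs.

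In MEFs 37 of the 39 Hox genes were well above background on all arrays, as they were in OS and in OCKS. The same 2 genes, Hoxb1 and Hoxd1, were above it on no array of these 3 groups. In PGCs 31 genes were above background on all arrays, 4 on some (Hoxb5, Hoxb8 and Hoxd12 on 2 arrays and Hoxd11 on 1) and 4 on none (Hoxa5, Hoxb1, Hoxb2 and Hoxc11). Hoxb1, which acts in the hindbrain, had levels of -10.33 to -9.31 over all 12 arrays, was not well above background in any group and was tested in no comparison.

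For 5 Hox genes the 250 bases before the start site that the RefSeq promoter table gives are shown because these genes span the responses described below: Hoxd1 and Hoxd8 were higher in PGCs than in MEFs, Hoxb8 and Hoxd13 were far lower there, and Hoxa11 was the gene that lay highest over MEFs in OCKS among those tested and had one of the lowest PGC levels relative to MEFs. They are RefSeq sequences of GRCm38.p6, written from 5′ to 3′ with CG dinucleotides in capitals. The stretch of Hoxd1 lies at chr2:74762730-74762979 on the plus strand, that of Hoxd8 at chr2:74704365-74704614 on the plus strand, that of Hoxd13 at chr2:74667975-74668224 on the plus strand, that of Hoxb8 at chr11:96281655-96281904 on the plus strand and that of Hoxa11 at chr6:52245811-52246060 on the minus strand. The start site used for Hoxb8 lies inside the span that RefSeq gives the whole gene, chr11:96279401-96285325.
Hoxd1: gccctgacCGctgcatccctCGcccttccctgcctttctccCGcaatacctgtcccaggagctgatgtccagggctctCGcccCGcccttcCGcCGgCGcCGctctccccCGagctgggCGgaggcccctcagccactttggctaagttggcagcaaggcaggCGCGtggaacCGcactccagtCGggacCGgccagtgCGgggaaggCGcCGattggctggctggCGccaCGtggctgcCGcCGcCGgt
Hoxd8: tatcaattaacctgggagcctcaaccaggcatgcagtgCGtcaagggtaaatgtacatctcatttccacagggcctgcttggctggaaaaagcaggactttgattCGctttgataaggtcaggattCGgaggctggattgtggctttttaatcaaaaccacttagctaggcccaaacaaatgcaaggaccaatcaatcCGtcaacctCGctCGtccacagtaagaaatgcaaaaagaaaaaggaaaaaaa
Hoxd13: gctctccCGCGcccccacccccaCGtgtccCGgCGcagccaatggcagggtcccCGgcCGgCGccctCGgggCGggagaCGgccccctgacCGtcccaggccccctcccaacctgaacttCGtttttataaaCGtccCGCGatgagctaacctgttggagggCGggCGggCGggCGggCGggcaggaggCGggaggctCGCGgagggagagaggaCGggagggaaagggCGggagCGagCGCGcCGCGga
Hoxb8: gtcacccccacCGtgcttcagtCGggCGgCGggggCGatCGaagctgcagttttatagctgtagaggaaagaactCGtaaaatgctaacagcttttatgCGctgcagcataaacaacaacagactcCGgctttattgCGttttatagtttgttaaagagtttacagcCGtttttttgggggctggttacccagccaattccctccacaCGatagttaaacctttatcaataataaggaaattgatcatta
Hoxa11: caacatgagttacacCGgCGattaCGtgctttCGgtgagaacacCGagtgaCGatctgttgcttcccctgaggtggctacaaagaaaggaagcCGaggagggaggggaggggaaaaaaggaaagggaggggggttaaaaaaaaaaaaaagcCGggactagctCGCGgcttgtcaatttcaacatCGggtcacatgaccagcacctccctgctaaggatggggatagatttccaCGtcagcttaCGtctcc

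The CG counts of these stretches were 24 in Hoxd1, 6 in Hoxd8, 31 in Hoxd13, 12 in Hoxb8 and 13 in Hoxa11. The highest and the lowest of these counts thus fell to a gene lower and a gene higher in PGCs. A promoter was given for 22 of the 39 members, with a median of 12 CG dinucleotides against 6 over all 27025 promoters of the same length. The letters TATAAA, the TATA box, occurred on either strand in 3 of the 22 (Hoxb8, Hoxd13 and Hoxd4), against 13% of all promoters. The letters TTTATG, a site that Cdx factors can bind and whose matches may overlap those of the TATA box, occurred on either strand in 5 of the 22 (Hoxa7, Hoxb8, Hoxd11, Hoxd3 and Hoxd4), against 11.1% of all promoters. The E-box CACGTG, which Myc can bind, occurred in 3 of the 22 (Hoxd1, Hoxd10 and Hoxd13), against 6% of all promoters. A match is a description of these letters and not a measured site.

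The first question was what the treatments did to the Hox pattern of the fibroblasts. In OS, 15 of the 37 Hox genes tested fell and none rose, and in OCKS 14 of 37 fell and none rose. Over all genes tested 12.9% were lower and 10.4% higher in OS than in MEFs, and 14.2% were lower and 10.9% higher in OCKS. The median Hox difference was -0.88 in each treatment, beside -0.21 over all 16247 genes tested in OS and -0.19 over all 16141 in OCKS. At an unadjusted p under 0.05, 2 Hox genes were higher and 24 lower in OS, and 3 were higher and 25 lower in OCKS. Over all genes tested, 4208 of 16247 were higher and 7016 lower at this p in OS, and 4387 of 16141 were higher and 6941 lower in OCKS. Both treatments were set against the same MEF arrays, so that their values stand side by side and are no independent repeats. Scaling on the RNA spike-ins in place of the 75th percentile moved the median of all genes in OS from -0.21 to 0.61, and left 6 Hox genes lower and 2 higher there, whereas in OCKS it left 11 lower and none higher. Among those that stayed lower in OS were Hoxb2, Hoxb8, Hoxb9, Hoxc8 and Hoxc10.

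**Figure D1:**
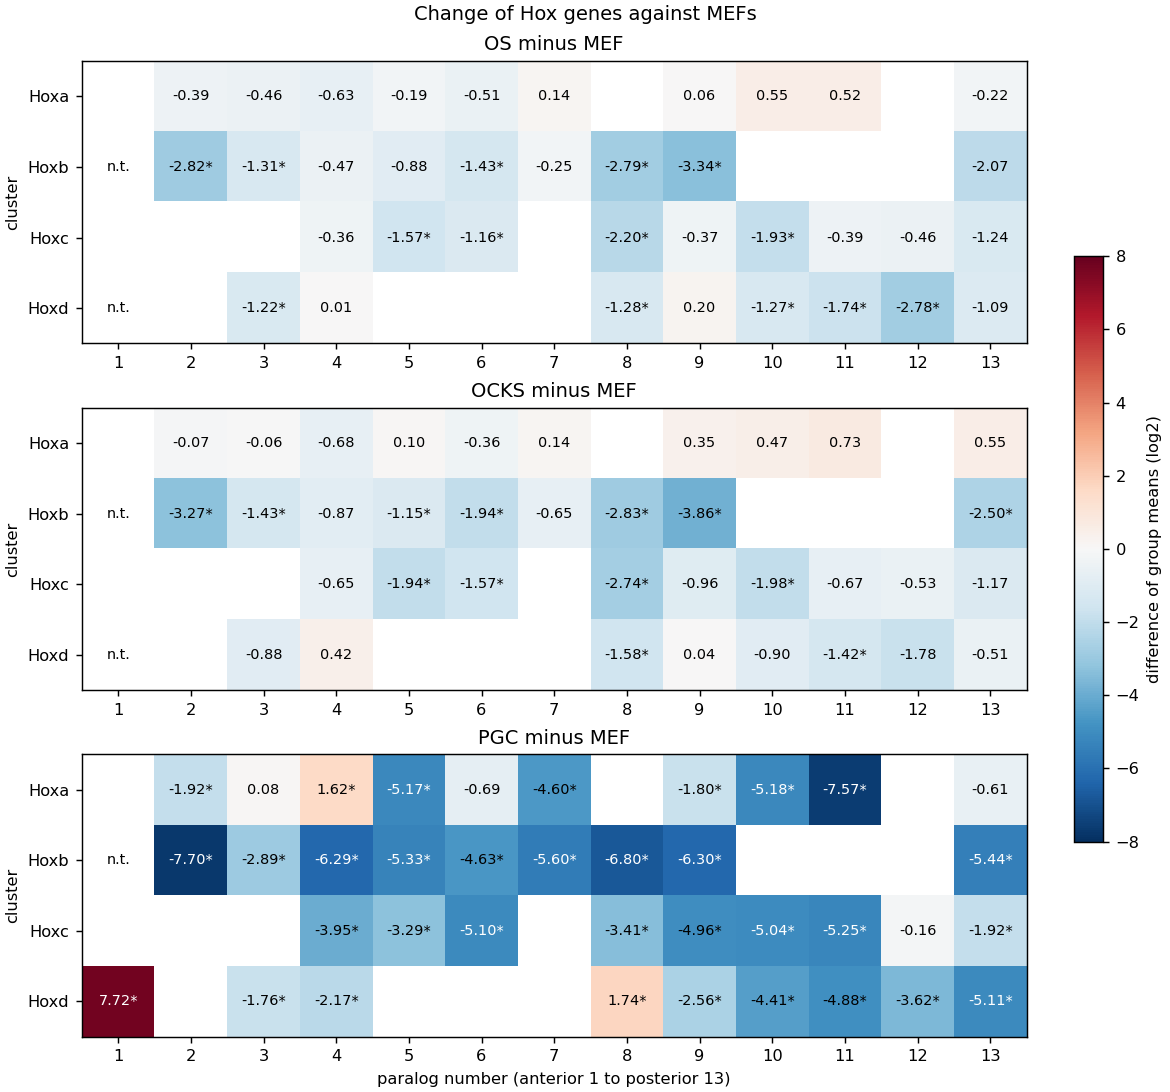
Difference of group means from MEFs in log2 units, by cluster (rows) and paralog number (columns), for OS, OCKS and PGCs, with an asterisk where the difference was called, n.t. where the gene was not tested and no text where a cluster has no gene of that number or none is shown. The Hoxb and Hoxc rows are negative throughout in all 3 panels, while the Hoxa row of the treated cells is near 0 for the 10 genes shown; under spike-in scaling 2 Hoxb and 4 Hoxc genes turn positive in OS.

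In the Hoxb cluster 5 of 9 genes were lower in OS and 7 of 9 in OCKS, the highest count of the 4 clusters in OCKS, with medians of -1.43 and -1.94. All 9 differences were below 0 in both treatments, except that 2 of them turned positive in OS under spike-in scaling, which left 3 of the 9 lower there. Hoxb9, which acts in the thoracic region, fell the most of all Hox genes, from levels of 1.22, 1.25 and 0.93 in MEFs to -1.87, -1.99 and -2.77 in OS and -2.75, -2.37 and -3.08 in OCKS. Every treated array lay far under every control array, with changes of -3.34 ± 0.259 (SE) and -3.86 ± 0.259, or 10.2-fold and 14.6-fold lower (adjusted p = 2.57e-06 and 9.56e-07). Hoxb2, which patterns the hindbrain and facial motor neurons, had levels of -0.03, 0.07 and 0.16 in MEFs, -2.70, -2.54 and -3.03 in OS and -3.25, -3.21 and -3.16 in OCKS. Its groups did not overlap, and it fell 7.06-fold in OS and 9.66-fold in OCKS (adjusted p = 1.61e-07 and 6.73e-08). Hoxb8, which is active in spinal cord and in blood cell precursors, had the widest control values, -0.26, -0.63 and -1.76 in MEFs, against -3.48, -3.61 and -3.92 in OS and -3.69, -3.33 and -4.13 in OCKS. Even its lowest control array lay above all treated arrays, and the differences were -2.79 ± 0.346 and -2.83 ± 0.346 (adjusted p = 6.16e-05 and 5.22e-05). In fits of the 2 groups alone the adjusted p of Hoxb8 were 0.00182 and 0.00218, past the threshold in neither.

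Hoxb6 fell from -0.08, 0.23 and -0.21 in MEFs to -1.53, -1.31 and -1.51 in OS and -1.86, -1.95 and -2.06 in OCKS, 2.69-fold and 3.82-fold (adjusted p = 1.73e-05 and 2.23e-06). Hoxb3, a hindbrain and neck gene, fell from -1.74, -1.91 and -1.94 to -3.14, -3.21 and -3.17 in OS and -3.07, -3.26 and -3.55 in OCKS, 2.47-fold and 2.69-fold (adjusted p = 7.1e-06 and 3.82e-06). The values of both genes were tight within each group and did not overlap between treated and control arrays. Hoxb5 had -2.35, -2.27 and -2.46 in MEFs, -3.27, -3.19 and -3.29 in OS and -3.29, -3.63 and -3.61 in OCKS. It was called in OCKS (-1.15, adjusted p = 0.000277) and not in OS (-0.88, adjusted p = 0.00154), and its call in OCKS was lost when MEF array 1 or 2 or OCKS array 2 or 3 was left out (adjusted p = 0.00135, 0.00164, 0.00146 and 0.00171). Hoxb13, a gene of the tail bud and prostate, had 0.72, 0.30 and 0.69 in MEFs, -1.01, -1.45 and -2.02 in OS and -3.01, -0.96 and -1.82 in OCKS. It was called in OCKS (-2.50 ± 0.44, adjusted p = 0.0006) and not in OS (-2.07 ± 0.44, adjusted p = 0.0021), with the OCKS arrays spread over 2 log2 units. Without any 1 of the 3 MEF arrays, OS array 2, OCKS array 3 or any 1 of the 3 PGC arrays the OCKS call of Hoxb13 was lost (adjusted p between 0.0012 and 0.00293), and it was gained in OS without OCKS array 1 or 2 (adjusted p = 0.000228 and 0.0005). Hoxb4, a gene of blood stem cells, and Hoxb7 were not called, at -0.47 and -0.25 in OS and -0.87 and -0.65 in OCKS.

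**Figure D2:**
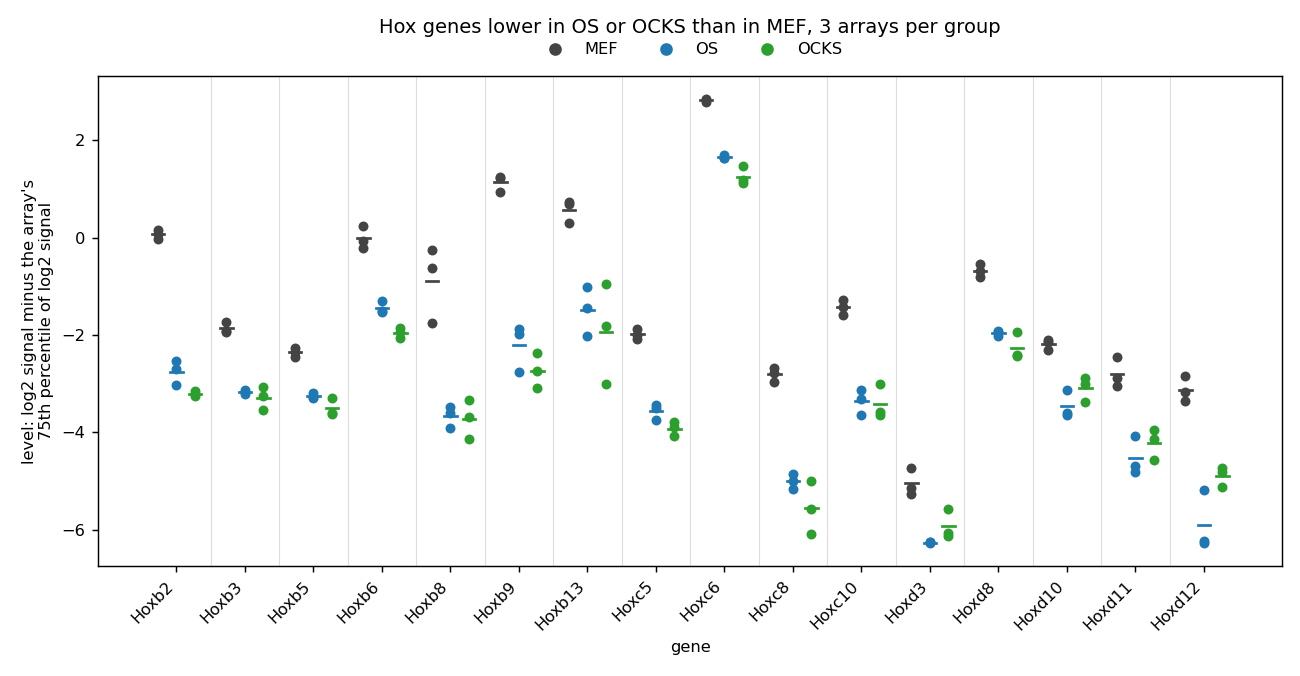
Level of each array (points; log2 signal minus the array's 75th percentile) and group mean (bars) for 16 Hox genes called lower in OS or OCKS than in MEFs, 3 arrays per group. For every gene shown all treated points lie under all MEF points, which is no separate support, since the genes were chosen by their calls on these arrays. Over all genes tested, 44.8% had all OS arrays under all MEF arrays and 43.6% all OCKS arrays. Hoxb13 has the widest OCKS points, from -3.01 to -0.96.

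In the Hoxc cluster 4 of 9 genes fell in each treatment, with medians of -1.16 in OS and -1.17 in OCKS and no difference above 0, although 4 of the 9 were above 0 in OS under spike-in scaling, which left 2 of the 9 lower there. Hoxc8, a thoracic gene, had -2.67, -2.78 and -2.96 in MEFs, -4.85, -5.17 and -4.99 in OS and -5.57, -4.99 and -6.08 in OCKS, 4.58-fold and 6.68-fold lower (adjusted p = 1.76e-05 and 3.86e-06). Hoxc10, which acts in lumbar motor neurons and the hindlimb, had -1.42, -1.29 and -1.59 in MEFs, -3.14, -3.31 and -3.65 in OS and -3.59, -3.0 and -3.65 in OCKS, 3.81-fold and 3.94-fold lower (adjusted p = 1.01e-05 and 8.15e-06). For both genes the treated arrays lay more than 1 log2 unit under the controls. Hoxc5 had -1.88, -2.0 and -2.09 in MEFs, -3.44, -3.50 and -3.74 in OS and -3.90, -3.79 and -4.08 in OCKS (adjusted p = 4.58e-05 and 1.05e-05). Hoxc6, which acts in brachial motor neurons, fell least of the called Hoxc genes, from 2.85, 2.82 and 2.78 to 1.69, 1.64 and 1.63 in OS and 1.18, 1.46 and 1.11 in OCKS, 2.24-fold and 2.97-fold (adjusted p = 6.93e-05 and 8.55e-06). The other 5 genes were not called, with differences of -1.24 to -0.36 in OS and -1.17 to -0.53 in OCKS, the lowest being Hoxc13, a gene of hair follicles. Leaving out OCKS array 1 or 2 brought Hoxc13 past the threshold in OS (adjusted p = 0.000417 and 0.000593), and leaving out OCKS array 2, which lay above the other OCKS arrays for all 9 Hoxc genes, brought Hoxc9 and Hoxc13 past it in OCKS (adjusted p = 2.7e-05 and 0.000454).

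In the Hoxd cluster 5 of 8 genes tested fell in OS and 2 of 8 in OCKS, with medians of -1.24 and -0.89. Under spike-in scaling none of the 5 OS calls was kept (adjusted p between 0.00102 and 0.216), 1 of the 2 OCKS calls was, and the medians were -0.43 and -0.55, and in a fit of OS and MEFs alone 2 of the 8 genes were lower. Hoxd12, a distal limb gene, had -2.84, -3.36 and -3.17 in MEFs, -6.28, -6.23 and -5.19 in OS and -4.74, -5.13 and -4.82 in OCKS. All treated arrays lay under the controls, and the change was called in OS (-2.78 ± 0.369, adjusted p = 9.69e-05) and not in OCKS (-1.78 ± 0.369, adjusted p = 0.00175). Without OS array 3 or PGC array 1 it was called in OCKS as well (adjusted p = 0.00079 and 0.000489). Hoxd11, a gene of the forearm and kidney, had -2.45, -2.89 and -3.04 in MEFs, -4.82, -4.70 and -4.08 in OS and -4.13, -4.56 and -3.96 in OCKS, 3.34-fold and 2.68-fold lower (adjusted p = 0.000132 and 0.000483). Its OCKS call was lost in 12 of 25 alternatives, among them the omission of MEF array 1 or 2, any 1 of the 3 OCKS arrays or PGC array 2 (adjusted p between 0.00101 and 0.0023). Hoxd8 had -0.82, -0.69 and -0.54 in MEFs, -1.95, -2.02 and -1.91 in OS and -2.44, -1.93 and -2.41 in OCKS, 2.42-fold and 2.99-fold lower (adjusted p = 2.17e-05 and 5.01e-06). Hoxd10, a gene of lumbar motor neurons, had -2.11, -2.15 and -2.30 in MEFs, -3.64, -3.60 and -3.13 in OS and -3.01, -3.37 and -2.89 in OCKS, called in OS (-1.27, adjusted p = 9.45e-05) and short of the fold in OCKS (-0.90, adjusted p = 0.000858).

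Hoxd3, a gene of the neck vertebrae, had -5.15, -4.73 and -5.26 in MEFs, -6.26, -6.28 and -6.26 in OS and -6.07, -5.58 and -6.12 in OCKS. Its OS call (-1.22, adjusted p = 0.000634) was lost in 15 of 25 alternatives, also without any 1 of the 3 MEF arrays, any 1 of the 3 OS arrays, OCKS array 1 or 3 or PGC array 3 (adjusted p between 0.00104 and 0.00309). Hoxd4 (0.01 and 0.42) and Hoxd9 (0.20 and 0.04) were not called in OS or OCKS, and neither was Hoxd13, a gene of the digits and genitals (-1.09 and -0.51), except in OS without OS array 3 (adjusted p = 0.000169). Hoxd1 stayed not well above background in every treated array and was not tested. RefSeq gives overlapping spans to Hoxd3 and Hoxd4, to Hoxd10 and Hoxd11, to Hoxb3 and Hoxb4 and to Hoxa3 with Hoxa4, Hoxa5 and Hoxa6, so that a probe of these genes may read transcripts of its neighbour.

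Of the Hoxa cluster 10 genes are described here, and limma called none of them in OS or OCKS. At an unadjusted p under 0.05, 2 of the 10 were higher and 3 lower in OS, and 3 were higher and 2 lower in OCKS. Over all genes tested, 4208 of 16247 were higher and 7016 lower at this p in OS, and 4387 of 16141 were higher and 6941 lower in OCKS. Of the genes with a second, dimmer probe, Hoxa9 had -3.72, -3.46 and -4.04 in MEFs on it and -4.38, -4.16 and -3.94 in OS, a lower mean where the probe used gave 0.06. In OCKS this second probe had -3.79, -4.15 and -4.15, again a lower mean, where the probe used gave 0.35, so that the direction of Hoxa9 differed between its probes in each treatment. Hoxb3 gave the same directions on both probes in OS, OCKS and PGCs. The 10 genes had differences of -0.63 to 0.55 in OS and -0.68 to 0.73 in OCKS, and the medians over the whole cluster were -0.22 and 0.10. Hoxa10 and Hoxa11, genes of the uterus and the limb, were the highest in OS, at 0.55 and 0.52 (adjusted p = 0.0017 and 0.00377). In OCKS they had 0.47 and 0.73 (adjusted p = 0.0039 and 0.000425), with Hoxa13 between them at 0.55. Each of these differences was under 2-fold. Under spike-in scaling Hoxa10 and Hoxa11 were called higher in OS, at 1.37 and 1.33 (adjusted p = 0.000146 and 0.000258). Across these 10 genes the difference went with the paralog number, at a Spearman rank correlation of 0.64 in OS and 0.85 in OCKS, a description over neighbouring genes of the same arrays. In the Hoxb, Hoxc and Hoxd clusters it was between -0.36 and 0.22.

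Grouped by position, the anterior genes (paralogs 1 to 3) had 4 of 6 tested lower in OS and 3 of 6 in OCKS, the central genes (4 to 8) 6 and 7 of 15, and the posterior genes (9 to 13) 5 and 4 of 16. The medians were -1.26 and -1.15 for the anterior, -0.63 and -0.87 for the central and -0.77 and -0.78 for the posterior genes. Over all clusters the rank correlation of the difference with the paralog number was 0.06 in OS and 0.10 in OCKS. By paralog group, all 3 genes numbered 8 fell in each treatment and none of the 4 genes numbered 4 was called, with differences of -0.63 to 0.01 in OS and -0.87 to 0.42 in OCKS. Over all genes tested 12.9% were lower in OS and 14.2% in OCKS, so that none called of 4 is no trait of that group.

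Markers of other cell types changed as well, beside 10.4% higher and 12.9% lower of all genes tested in OS and 10.9% and 14.2% in OCKS. In these lists the summed level is the log2 of the summed signal, in which bright probes weigh most. All 6 leukocyte markers measured were lower in OS and in OCKS, with their summed level at 2.67 to 3.31 in MEFs, -0.02 to 0.39 in OS and -0.41 to 0.05 in OCKS, and 4 of 5 neural markers were lower in each. Of 8 gonadal somatic markers 4 were lower in OS and 3 in OCKS, of 5 endothelial markers 1 (Kdr) was lower in each and 1 (Cdh5) higher in OS. Of the 10 fibroblast markers 3 rose (Lum, Pdgfra and Dcn) and 3 fell (Col1a1, Col1a2 and S100a4) in each treatment, with the summed level at 8.88 to 9.38 in MEFs, 8.37 to 8.94 in OS and 8.06 to 8.91 in OCKS. The part of these cells in the Hox results was not tested.

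The next question was how the Hox response differed between OCKS, with c-Myc and Klf4 in the vector, and OS. These groups also differed in their vectors, a tandem vector in OCKS and separate Oct4 and Sox2 vectors in OS. Pou5f1 was called higher than in MEFs in OS and not in OCKS. Effects of c-Myc and Klf4 therefore cannot be told apart from those of the vectors. No Hox gene of 37 tested was called higher or lower in OCKS than in OS by limma, and over all 15685 genes 0% were called in either direction. At an unadjusted p under 0.05, 11 of the 37 Hox genes differed, beside 2659 of all 15685, and the lowest adjusted p of a Hox gene was 0.169, for Hoxb6. The differences ranged from -0.60 (Hoxc9, 95% interval -1.09 to -0.11) to 1.0 (Hoxd12, 0.18 to 1.83). A 2-fold difference in either direction lay outside the interval of 28 of the 37 genes, while the interval of the other 9 reached it, as in Hoxa13 (0.78, 0.10 to 1.46), Hoxd13 (0.58, 0.05 to 1.1) and Hoxb9 (-0.52, -1.1 to 0.06).

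In Hoxb all 9 differences were below 0, with a median of -0.40, and in Hoxc 8 of 9, with a median of -0.29, whereas in Hoxa 9 of 11 were above 0, with a median of 0.21, and in Hoxd 6 of 8, with a median of 0.35. These counts are a description of neighbouring genes on the same arrays. Without any 1 array, 7 to 9 of the Hoxb and 6 to 9 of the Hoxc differences were below 0, and 8 to 10 of the Hoxa and 6 to 7 of the Hoxd differences above it. The Hoxc median was -0.17 without OCKS array 1 and -0.48 without OCKS array 2, and the Hoxa median 0.13 without OCKS array 1. On slide 3, which held OS array 1 and OCKS array 1, 8 of 9 Hoxb and 8 of 9 Hoxc differences were below 0, and 9 of 11 Hoxa and 6 of 8 Hoxd differences were above 0. Both arrays are also part of the counts over all arrays. Spike-in scaling moved the median of all genes to -0.46 and put 10 of the 11 Hoxa and 6 of the 8 Hoxd differences below 0, with medians of -0.26 in Hoxa, -0.88 in Hoxb, -0.76 in Hoxc and -0.12 in Hoxd. This scaling shifts all genes of an array by the same amount. It therefore leaves the clusters where they were relative to all genes, Hoxa and Hoxd above and Hoxb and Hoxc below. That they kept these places was fixed in advance and is no separate support.

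**Figure D3:**
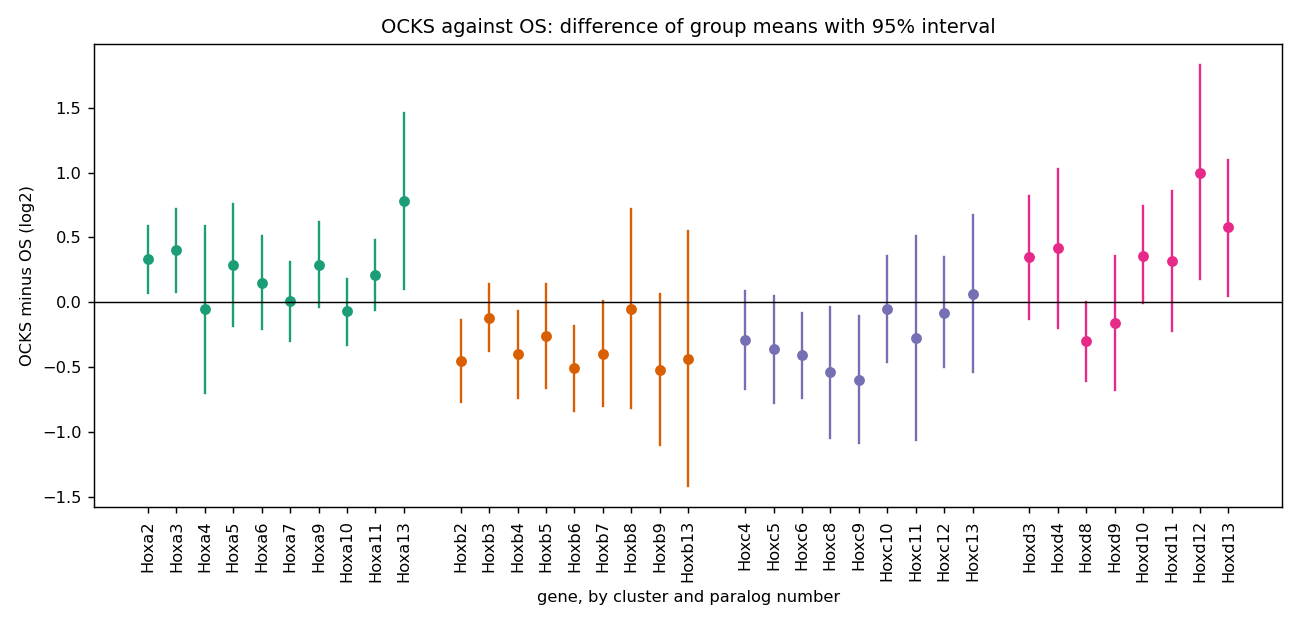
OCKS minus OS difference of group means in log2 units (points) with the 95% interval of the limma fit (lines) for 36 of the 37 Hox genes tested, ordered by cluster and paralog number. All 9 Hoxb points are below 0 and 8 of 10 Hoxa points are above it, but no difference passed the adjusted threshold, and under spike-in scaling 10 of the 11 Hoxa differences tested are below 0.

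The last question was how E15.5 PGCs, a stage of the germ cells that the study aimed at, differ from fibroblasts in Hox expression. The paper set the genes raised by the treatments against male PGCs of an earlier stage, which are not among these arrays. It also placed E15.5 female PGCs beside the treated cells in a principal component analysis of the transcriptomes. Of 38 Hox genes tested 31 were lower and 3 higher in PGCs than in MEFs, beside 25.1% lower and 31.7% higher over all 17348 genes tested. The median Hox difference was -4.18 and that of all genes 0.30. The 3 genes higher in PGCs were Hoxd1, Hoxd8 and Hoxa4, and the 4 not called were Hoxa3 (0.08), Hoxa6 (-0.69), Hoxa13 (-0.61) and Hoxc12 (-0.16). On slide 2, which held 2 MEF and 2 PGC arrays, all 34 called genes differed in the same direction. These arrays were part of the fit that made the calls, so that this agreement is no separate support. With the slide as a fixed block 27 were lower and 2 higher, the calls of Hoxa4, Hoxc13, Hoxd3, Hoxd4 and Hoxd9 being lost (adjusted p = 0.00119, 0.00246, 0.00681, 0.00634 and 0.00294).

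All 9 Hoxb genes tested were lower in PGCs, with a median of -5.60 and a range of -7.70 to -2.89. Hoxb2 had -7.43, -7.86 and -7.63 in PGCs against -0.03, 0.07 and 0.16 in MEFs. It was not well above background on any PGC array, so that its level was at least 208-fold lower (adjusted p = 2.14e-11), where a dim array is set to the higher of its own value and the lowest signal above background on it. Hoxb8 had -7.91, -7.52 and -7.61 in PGCs, with 2 of the 3 arrays above background, 111-fold under MEFs (-6.80 ± 0.346, adjusted p = 1.52e-08). Hoxb9 had -5.12, -4.94 and -5.47 and was 79-fold lower (adjusted p = 2.88e-09). For these genes the PGC arrays lay below the OS and OCKS arrays as well. Hoxb4 had 0.37, 0.42 and 0.51 in MEFs and -6.21, -5.62 and -5.73 in PGCs, 78.2-fold lower (adjusted p = 8.89e-11). Hoxb7 had -0.40, -0.08 and -0.02 in MEFs and -6.09, -5.40 and -5.81 in PGCs, 48.4-fold lower (adjusted p = 5.25e-10). Neither gene had been called in OS or OCKS. Hoxb13 had -5.03, -4.67 and -4.91 in PGCs (43.5-fold lower, adjusted p = 6.49e-07). Hoxb5 had -8.13, -7.61 and -7.34, with 2 of 3 arrays above background (40.2-fold lower, adjusted p = 6.85e-10).

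In the Hoxa cluster 7 of 11 genes were lower and 1 higher. Hoxa11 had 1.01, 0.69 and 0.85 in MEFs and -6.62, -6.74 and -6.82 in PGCs, a change of -7.57 ± 0.121 or 191-fold (adjusted p = 1.13e-11), in a gene whose treated arrays lay above the controls. Hoxa10 (36.3-fold), Hoxa7 (24.3-fold), Hoxa2 (3.78-fold) and Hoxa9 (3.48-fold) were lower too. Hoxa5, a gene of lung development, was above background on no PGC array and at least 29.7-fold lower (adjusted p = 2.71e-09). Hoxa4 had -5.35, -4.23 and -4.50 in MEFs and -3.31, -2.90 and -3.01 in PGCs, 3.07-fold higher (adjusted p = 0.000365). Its groups did not overlap, but the call was lost in 8 of 26 alternatives, among them median scaling (1.14, adjusted p = 0.00151), spike-in scaling (1.19, adjusted p = 0.00703) and the omission of PGC array 2 or 3 (adjusted p = 0.00212 and 0.00185). Hoxa3, a gene of thymus and parathyroid development, had -1.82, -1.86 and -2.30 in MEFs and -1.90, -1.88 and -1.95 in PGCs, which overlap (95% interval of the difference in the fit -0.24 to 0.40).

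**Figure D4:**
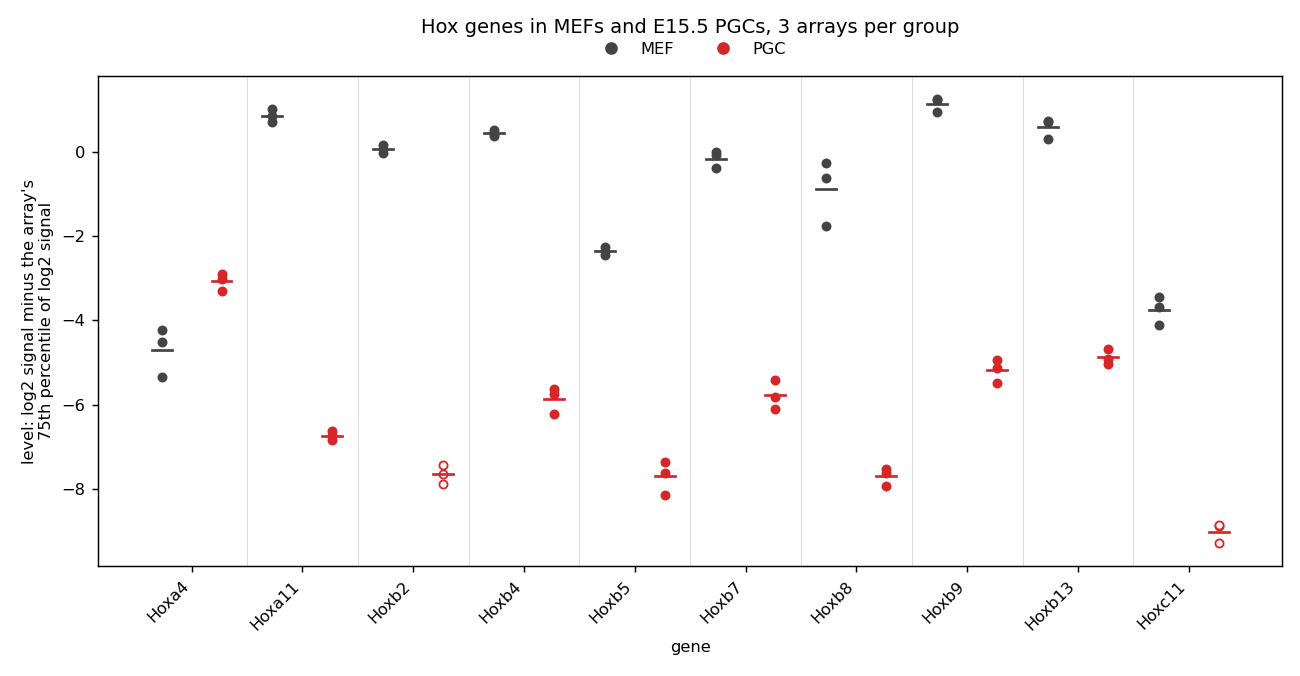
Level of each array (points; log2 signal minus the array's 75th percentile) and group mean (bars) in MEFs and PGCs for Hoxa4 and for the Hoxa, Hoxb and Hoxc genes among the 10 largest changes, with open points where no array of the group was well above background. Hoxa4 alone has its PGC points above its MEF points, and the PGC points of Hoxb2 and Hoxc11 are open.

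In the Hoxc cluster 8 of 9 genes were lower, with a median of -3.95. Hoxc11, a gene of the hindlimb and sacral region, had -3.45, -3.68 and -4.11 in MEFs and -9.28, -8.87 and -8.85 in PGCs, was above background on no PGC array and was at least 18.7-fold lower (adjusted p = 1.41e-07). Hoxc6 (34.3-fold), Hoxc10 (33-fold), Hoxc9 (31.1-fold), Hoxc8 (10.6-fold), Hoxc5 (9.8-fold) and Hoxc13 (3.77-fold) followed, and Hoxc4 fell by 3.95 on the log2 scale. Hoxc12 had -4.92, -4.53 and -4.51 in MEFs and -4.81, -4.83 and -4.78 in PGCs, which overlap (95% interval of the difference -0.58 to 0.27).

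The Hoxd cluster held the largest rise, with 2 of its 9 genes higher and 7 lower in PGCs. Hoxd1, which in mice acts in pain-sensing neurons, had -9.02, -9.77 and -9.17 in MEFs, none above background, and -1.60, -1.56 and -1.64 in PGCs, at least 81.7-fold higher (adjusted p = 1.79e-08). The PGC arrays lay close together, and no array of OS (-9.55, -7.76 and -9.26) or OCKS (-8.37, -7.83 and -7.94) came near them. Hoxd8 had 1.0, 1.11 and 1.06 in PGCs against -0.82, -0.69 and -0.54 in MEFs, 3.34-fold higher (adjusted p = 4.98e-07), in a gene that fell in both treatments. Between and beyond these, Hoxd3, Hoxd4 and Hoxd9 to Hoxd13 were lower in PGCs, by -1.76, -2.17, -2.56, -4.41, -4.88, -3.62 and -5.11 in the order of their paralog numbers. The rank correlation of the difference with the paralog number was -0.90 over the 9 Hoxd genes, beside -0.38 over the 10 Hoxa genes described, -0.07 in Hoxb and 0.22 in Hoxc, and -0.19 over all 38 genes. A probe that is dim in MEFs has less room to fall before background, as for Hoxd3 (mean -5.04 in MEFs) beside Hoxd13 (0.18). The part of this limit in the correlation was not tested. Hoxd13 fell 34.5-fold, from 0.47, 0.11 and -0.04 in MEFs to -5.10, -4.75 and -4.94 in PGCs (adjusted p = 6.67e-09). Hoxd11 was above background on 1 of 3 PGC arrays and Hoxd12 on 2.

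**Figure D5:**
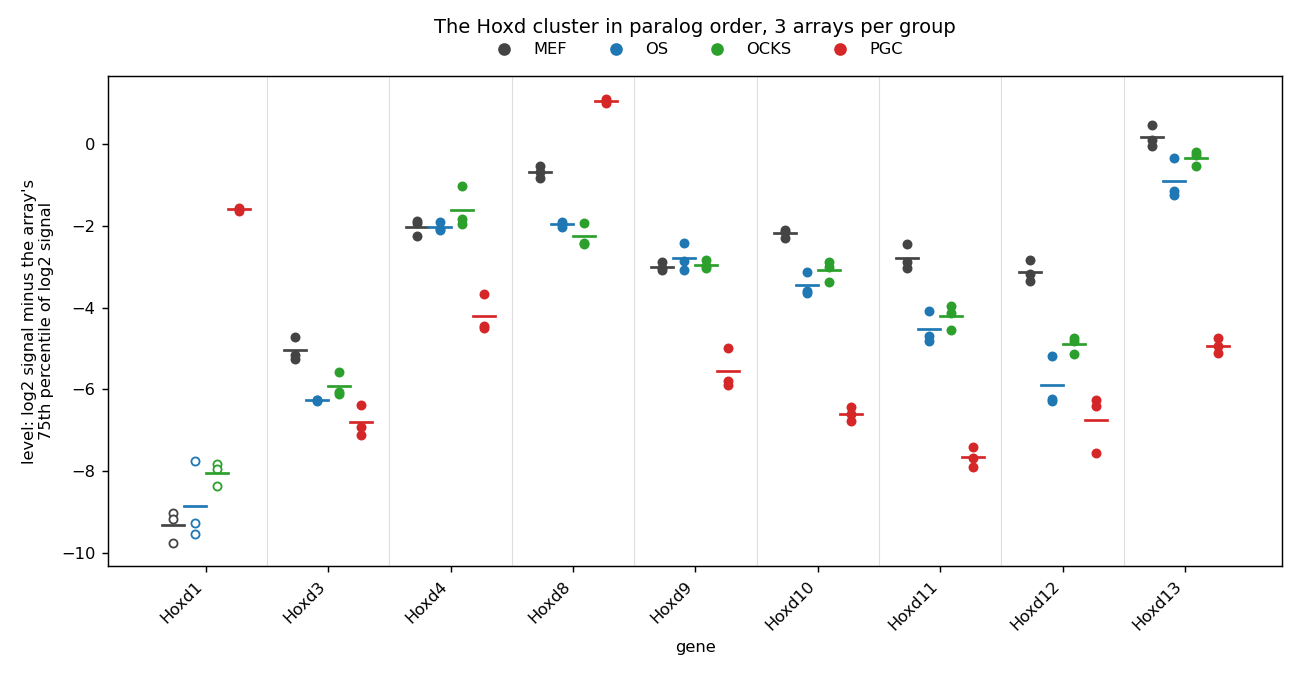
Level of each array (points; log2 signal minus the array's 75th percentile) and group mean (bars) of the 9 Hoxd genes in paralog order in MEFs, OS, OCKS and PGCs, with open points where no array of the group was well above background. PGC points lie above all others for Hoxd1 and Hoxd8 and below all others for the remaining genes except Hoxd12, where they overlap the OS points.

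By position, 14 of 16 posterior genes were lower in PGCs and none higher (median -4.92), 12 of 15 central genes were lower and 2 higher (median -4.60), and 5 of 7 anterior genes tested were lower and 1 higher (median -1.92). The PGC arrays also held markers of gonadal somatic cells, of which 4 of 8 were higher than in MEFs (Amhr2, Gata4, Nr5a1 and Wt1), and 3 lower (Fst, Emx2 and Lhx9). Over all genes tested 31.7% were higher and 25.1% lower in PGCs. The summed level of the gonadal somatic markers was 4.68 to 4.89 in PGCs and 4.92 to 5.07 in MEFs, a sum made up mostly of Foxl2 (4.38 to 4.57 and 4.24 to 4.30), which does not show the changes of the dimmer probes. All 10 fibroblast markers were lower, with a summed level of 2.09 to 2.43 in PGCs against 8.88 to 9.38 in MEFs, and 3 of 6 leukocyte markers, 2 of 5 neural markers and no endothelial marker of 5 were lower, while 1 endothelial marker (Cdh5) was higher. In each of these lists all markers measured were above background on at least 1 PGC array. The part of these cells in the PGC results was not tested.

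Of 11 measured neighbours and non-coding RNAs of the clusters, 2 of 10 tested were lower in OS, where 12.9% of all genes were, 4 of 10 were lower and 1 higher in OCKS, beside 14.2% and 10.9% of all genes, and 2 of 11 were lower and 4 higher in PGCs, beside 25.1% and 31.7%. Evx1, a homeobox gene next to Hoxa13, was above background on no MEF array (-9.14, -9.39 and -9.56) and had -1.37, -1.39 and -1.39 in PGCs, at least 95-fold higher (adjusted p = 9.08e-10). Evx2, next to Hoxd13, was at -6.49, -5.48 and -5.58 in MEFs, above background on no OS or OCKS array, and at least 3.16-fold lower in OCKS (adjusted p = 0.000466). Hoxa11os, the antisense RNA of Hoxa11, rose in OCKS (1.07, adjusted p = 0.000455) and fell in PGCs (-5.32, adjusted p = 7.3e-10), which are the signs of the Hoxa11 differences. Hoxd3os1, the antisense RNA at Hoxd3, fell in OS (-1.08) and OCKS (-1.09) and by at least 4.98-fold in PGCs (adjusted p = 0.00056, 0.000486 and 5.01e-07). Skap1, an adaptor of T cells next to Hoxb1, fell by 5.22 in OS and 5.98 in OCKS. Lnpk, beside the Hoxd cluster, was lower in OCKS (-1.02) and higher in PGCs (1.76).

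Of 15 tested upstream regulators 5 rose and 1 fell in OS, 4 rose and 1 fell in OCKS, and 5 were higher and 6 lower in PGCs. Over all genes tested, the shares higher and lower were 10.4% and 12.9% in OS, 10.9% and 14.2% in OCKS and 31.7% and 25.1% in PGCs. Cyp26b1, which degrades retinoic acid, rose by 3.67 ± 0.264 in OS and 3.38 ± 0.264 in OCKS (adjusted p = 1.61e-06 and 2.64e-06) and fell by 3.87 in PGCs. Cyp26a1, of the same function, rose by 1.63 and 1.66, and Cyp26c1, the other gene of this function, was not called (1.43 and 0.97, adjusted p = 0.00334 and 0.0238). Aldh1a2, which makes retinoic acid, rose by 1.01 and 1.20, also after treatment, and by 3.12 in PGCs. Rarb, a receptor and target of retinoic acid, rose by 1.63 in OS (adjusted p = 0.000159) and had a difference of 1.06 in OCKS that was not called (adjusted p = 0.0024), nor was OCKS against OS. Cdx1 had -5.57, -5.52 and -5.30 in MEFs and 0.69, 0.93 and 0.80 in PGCs, 6.27 higher (adjusted p = 9.09e-11), and Cdx2 was above background in PGCs alone and at least 8.07-fold higher.

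The counts below stand beside 10.4% higher and 12.9% lower of all genes tested in OS, 10.9% and 14.2% in OCKS and 31.7% and 25.1% in PGCs. Of 9 cofactors 1, Pknox2, fell in OS (-2.27) and OCKS (-1.70), with medians of -0.34 and -0.63 over the list. In PGCs 2 were higher (Pbx3, 4.04, and Pknox1, 1.05) and 4 lower (Meis2, -3.73, Meis1, -2.43, Meis3, -2.19, and Pknox2, -1.88). Of 21 Polycomb genes tested 2 rose (Jarid2, by 1.34 in OS and 1.63 in OCKS, and Ezh1, by 1.02 and 1.41) and 1 fell (Phf19, -1.42 and -1.58) in each treatment. Ezh2, the main H3K27 methyltransferase, was not called in either (-0.54 and -0.44). In PGCs 10 of 22 Polycomb genes were higher, among them Jarid2 (4.33), Phc1 (4.03), Mtf2 (3.17) and Cbx7, which was above background on no MEF array (at least 5.59-fold), and 4 were lower (among them Cbx6, -2.04, Phc2, -1.77, and Pcgf2, -1.42). Of 10 Trithorax genes and H3K27 demethylases 1, the demethylase Kdm6b, fell in OS (-1.06), in OCKS (-1.0) and in PGCs (-2.13), where 6 rose, among them Kdm6a (3.68), Kmt2b (2.55) and Wdr5 (2.07). Of the ParaHox and related genes none of 5 tested was called in OS or OCKS, at medians of -1.04 and -0.83, and in PGCs 3 of 7 were higher (Gbx2, 4.91, En2, 4.04, and Gbx1, 3.60) and 1 lower (En1, at least 9.77-fold).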

How the data were processed

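Total RNA of 3 biological replicates each of MEFs, OS, OCKS and E15.5 PGCs was hybridised by the authors to one-colour Agilent whole mouse genome arrays with RNA spike-ins. The deposited scanner files hold each spot's intensity (processed signal, after the scanner software's background subtraction). A deposited value table holds the authors' log2 values of the same arrays, of which 10 of 12 columns matched the scanner values. The match was in differences between arrays, so that the table is centred per gene, on a value not given in the sources used here, and its columns have medians of -0.104 to 0.258. It served as an alternative only. The file headers name the array design's build as mm9, and no coordinate of it is printed.

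Here, log2 processed signal minus each array's 75th percentile was taken, 92 probes with uneven spots were left out of 39429, and the probe with the highest mean was kept for each of 19711 genes named through RefSeq accessions; 13354 probes stayed unnamed. limma 3.58.1 (R 4.3.3) fitted all 4 groups, with Benjamini-Hochberg adjustment over all genes tested. The fit was also tested on simulated data with means and spreads taken from these arrays. The methods of the study gave the threshold of 2-fold and adjusted p 0.001. The number of arrays limits the precision. Replicates are separate biological samples per the labels. The Hox genes are named except 1, which like 2 genes of the other lists is counted but not reported here, per-array values are given for those called between MEFs, OS and OCKS and for the 10 largest changes in PGCs (with Hoxd1, Hoxb2 and Hoxc11 measured in 1 of the groups only), and up to 4 called genes of each other list. The members and lists were chosen with earlier results of these data known. Other normalizations, filters, blocks and omissions were tried as alternatives.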

Additional observations from a re-analysis of the deposited data

Results flagged for a closer look

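One measurement outside the comparisons stood above every control array. Hoxa13, a gene of digits and genital tract, has a second, dimmer probe that was not used, and its levels were -5.03, -5.33 and -5.03 in OCKS against -5.80, -6.04 and -5.67 in MEFs, a difference of 0.71 with all arrays above background. On the probe used, the Hoxa13 levels were -2.91, -3.10 and -3.11 in OCKS and -2.89, -3.95 and -3.96 in MEFs, which overlap, at a difference of 0.55 (limma adjusted p = 0.132). The difference of the unused probe was not tested. Among all genes tested, on the probes used, 27.7% had all OCKS arrays above all MEF arrays.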

How the results depend on the processing

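No Hox call changed direction under any alternative that gave the gene a value. Of 63 calls of single Hox genes 42 were kept in every alternative, and of the 8 counts of Hox genes called 4 stayed within 1.5-fold in all. The other 4 moved under 2 settings. Spike-in scaling gave 6 genes lower and 2 higher in OS than in MEFs, and an adjusted p under 0.05 with no minimum fold gave 23 lower and 2 higher in OS and 23 lower and 2 higher in OCKS. Fits of the 2 groups only gave 11 lower in OS and 12 in OCKS, and the slide as a random block 14 in each. Without 1 array the counts were 14 to 17 lower in OS, 11 to 15 in OCKS and 31 in PGCs, with 2 to 3 higher in PGCs. Counts above background changed by at most 7 genes, in PGCs, from 31 to 38 with the scanner's weaker criterion.

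The replicate numbers were not used to pair the samples. Deviations of same-numbered arrays correlated between -0.3428 and 0.5109 and not above 0.1 in every pair. With so few arrays per group this cannot exclude a shared preparation. With the replicate block 15 Hox genes were lower in OS, 11 in OCKS and 31 in PGCs, 3 were higher in PGCs, and no gene was called between OCKS and OS.

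Cluster and position medians, taken relative to the median of all genes tested, kept their sign except where they lay near 0. Median, detected-probe and spike-in scaling shift all genes of an array alike and cannot move these relative values. On this relative scale the reported settings gave, in Hoxa to Hoxd, -0.01, -1.22, -0.95 and -1.03 in OS, 0.29, -1.75, -0.98 and -0.70 in OCKS, 0.20, -0.41, -0.30 and 0.34 between OCKS and OS and -2.22, -5.90, -4.25 and -2.87 in PGCs, and for anterior, central and posterior genes -1.05, -0.42 and -0.56 in OS, -0.96, -0.68 and -0.60 in OCKS, 0.20, -0.30 and -0.01 between OCKS and OS and -2.22, -4.90 and -5.22 in PGCs. With quantile normalization they were, in PGCs, -2.68 in Hoxa, -6.27 in Hoxb, -4.47 in Hoxc, -2.68 for anterior, -4.97 for central and -5.50 for posterior genes, and in OS -0.92 in Hoxc and -1.01 for anterior genes. With normexp correction they shrank, in PGCs to -1.35, -4.16, -2.41 and -1.77 in Hoxa to Hoxd and -0.82, -2.60 and -2.38 for anterior, central and posterior genes, in OS to -0.92 in Hoxc, -0.87 in Hoxd and -0.62 for anterior genes, in OCKS to -0.48 in Hoxd and -0.60 for anterior genes, and between OCKS and OS to 0.23 in Hoxd and 0.09 for anterior genes. Requiring signal in both groups gave -2.03 in Hoxa, -3.85 in Hoxc, -2.09 for anterior and -3.85 for central genes in PGCs. With no filter, Hoxc was at -0.98 and the anterior genes at -0.66 in OS, Hoxd at -0.74 and the anterior genes at -0.33 in OCKS, and the anterior genes at -2.09 in PGCs. The slide as a fixed block gave 0.43 in Hoxa and 0.12 for anterior genes between OCKS and OS and -4.80 for central genes in PGCs. The slide as a random block gave -0.92 in Hoxc in OS, and the deposited values, fitted without PGC arrays 2 and 3 and thus with 1 PGC array assumed to vary like the other groups, gave -4.77 for central genes in PGCs.

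Leaving out 1 array gave, in OS, -0.25 to 0.11 in Hoxa, -1.31 to -1.12 in Hoxb, -0.98 to -0.87 in Hoxc, -1.12 to -0.99 for anterior and -0.63 to -0.27 for central genes, and in OCKS 0.14 to 0.38 in Hoxa (lowest without OCKS array 1) and -0.78 to -0.61 in Hoxd. Between OCKS and OS it gave 0.12 to 0.25 in Hoxa (lowest without OCKS array 1), -0.49 to -0.18 in Hoxc (without OCKS array 2 and 1), 0.30 to 0.45 in Hoxd, 0.12 to 0.22 for anterior, -0.44 to -0.23 for central and -0.13 to 0.18 for posterior genes, and in PGCs -2.34 to -2.12 for anterior, -4.97 to -4.70 for central and -5.32 to -5.04 for posterior genes. The causes of these shifts were not tested. Signal near background limits the Hox values in PGCs, of which 8 genes were not above background on all arrays.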
